A study of Rattus norvegicus with 4 samples.

Results

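The serotonin receptor genes Htr1b, Htr1f, Htr2a, Htr2c, Htr4 and Htr7 were followed across the cell classes of the rat nucleus accumbens, a ventral striatal region that takes part in reward. The 6 genes were taken by symbol (Ensembl identifiers ENSRNOG00000013042, ENSRNOG00000000716, ENSRNOG00000010063, ENSRNOG00000030877, ENSRNOG00000019134 and ENSRNOG00000018827, in that order) from the 30560 genes counted, among which 14 are serotonin receptor genes. The data are single-nucleus RNA counts from 4 libraries, and each library pooled accumbens tissue from 4 Sprague-Dawley rats aged 90 to 120 days. One female and one male library came from rats given saline, and one female and one male library from rats given cocaine at 20 mg/kg into the peritoneum, once a day for 7 days. Tissue was collected 1 hour after the final dose, as punches 2 mm wide centred on the core. Each treatment therefore had 2 libraries, 1 of each sex, and pooling hides the spread between rats.

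Serotonin reaches the accumbens from the raphe nuclei of the brainstem and acts there on several receptors. The genes Htr1b and Htr1f encode receptors coupled to Gi proteins, which lower cyclic AMP; Htr1b is also known as a receptor on axon terminals, where it reduces transmitter release. The products of Htr2a and Htr2c couple to Gq proteins, which activate phospholipase C, and the Htr2c transcript is known for editing of adenosines in its coding sequence. The receptors encoded by Htr4 and Htr7 couple to Gs proteins, which raise cyclic AMP.

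After filtering, 24843 nuclei were kept, 5904 to 6841 per library. The libraries held 31484217 to 40737786 unique molecular identifiers (UMIs, each standing for 1 captured RNA molecule), with medians of 4363 to 5066 per barcode, and 81 barcodes occurred in 2 libraries. Clustering without the serotonin receptor genes gave 23 clusters, of which 4 with 385 nuclei were left unnamed. The largest neuronal classes were medium spiny neurons (MSNs), the projection neurons of the striatum. The D1-MSN-like class held 4965 nuclei, with Drd1 at 105 CPM (its UMIs scaled to counts per 1000000 UMIs of the class) against 2.67 CPM in the D2-MSN-like class. The D2-MSN-like class held 3831 nuclei, with Drd2 at 806 CPM against 5.61 CPM in the D1-MSN-like class. Another 1985 nuclei formed a Grm8 MSN-like class. A pair of GABAergic clusters, in both of which Stac ranked first by fold, is told apart here by another of the top 10 genes of each, Klhl1 (1823 nuclei) and Drd3 (315 nuclei). Clusters inside the MSN and interneuron classes are likewise named for 1 of their top 10 genes, not always the first. Interneuron classes were Pvalb/Pthlh-like with 508 nuclei, for which Pvalb itself was not among the genes of the files, and Sst-like with 236 nuclei. Glutamatergic, astrocyte-like, oligodendrocyte-like, oligodendrocyte precursor-like and microglia-like nuclei completed the 12 classes that were compared between treatments.

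The receptors were captured at very different depths. Over all kept nuclei there were 58439 UMIs of Htr2c, 25810 of Htr4, 4318 of Htr7, 2790 of Htr2a, 1938 of Htr1b and 200 of Htr1f. These totals are not per length of transcript, so they are not an order of the genes' levels. Among the 72 combinations of a receptor with one of the 12 classes, 42 held at least 20 UMIs and 30 held fewer. Values from the latter are marked as resting on few UMIs.

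Because Htr2c and Htr7 are the receptors whose counts passed the test between treatments in some class, their upstream sequences are shown, from RefSeq's GRCr8 assembly. Each run is the 250 bases before the annotated start on the gene's strand, 5′ to 3′. Capitals mark the cyclic AMP response element half-site TGACG, or CGTCA when it lies on the other strand.
Htr2c: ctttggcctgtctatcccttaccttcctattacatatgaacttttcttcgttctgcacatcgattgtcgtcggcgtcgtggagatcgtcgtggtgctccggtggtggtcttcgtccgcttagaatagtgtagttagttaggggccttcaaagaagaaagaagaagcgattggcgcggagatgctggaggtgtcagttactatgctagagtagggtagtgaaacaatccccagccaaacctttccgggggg
Htr7: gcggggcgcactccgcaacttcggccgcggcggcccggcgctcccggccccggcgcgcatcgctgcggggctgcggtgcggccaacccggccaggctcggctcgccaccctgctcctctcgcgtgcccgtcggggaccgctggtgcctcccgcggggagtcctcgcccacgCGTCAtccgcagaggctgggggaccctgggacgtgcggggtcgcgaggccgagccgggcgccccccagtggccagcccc
The Htr2c stretch lies at chrX:115452940-115453189 on the plus strand. The Htr7 stretch lies at chr1:243173049-243173298 on the minus strand. RefSeq promoters were matched for 4 of the 6 receptors, Htr1b, Htr1f, Htr2c and Htr7, and were searched on both strands over 250 bases before to 50 after the start. Only Htr7 held the half-site, at position -79 from the start, and 21.2% of all 33469 rat promoters of this length held it. None of the 4 held TGACTCA, the AP-1 site, which 4.6% of all promoters held, or TATAAA, which 14.2% held. The Htr7 window was 79.7% G and C with 44 CpG pairs, and the Htr1f window was 26.3% G and C with none, against a median of 51.7% for all promoters. The match is a description of letters, and binding at it was not measured.

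The Gi-coupled receptor genes were spread over the MSN classes at low counts. Htr1b in D1-MSN-like nuclei stood at 20.2 CPM (saline, female), 23.3 CPM (cocaine, female), 17.8 CPM (saline, male) and 22.0 CPM (cocaine, male). In D2-MSN-like nuclei the same libraries gave 26.1, 23.9, 19.5 and 24.2 CPM of Htr1b. The ranges of both classes overlapped, but within each of the 4 libraries the D2-MSN-like value was the higher. As means of the 4 libraries, the D1-MSN-like class held 44.1% and the D2-MSN-like class 36.8% of all Htr1b UMIs. The same classes held 31.0% and 23.0% of the UMIs of all genes.

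Below them came the Grm8 MSN-like class, with Htr1b at 12.0, 14.3, 14.6 and 13.8 CPM in that same order of libraries, which every list of 4 values keeps from here on. The Klhl1 cluster was lower, at 8.05, 8.96, 9.83 and 5.83 CPM, and did not overlap the Grm8 MSN-like values. Interneurons held few Htr1b UMIs, 2 in Sst-like and 8 in Pvalb/Pthlh-like nuclei. Within the D2-MSN-like class, the Casz1 cluster (362 nuclei) had Htr1b at 33.5, 43.0, 33.9 and 32.9 CPM.

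Htr1f rested on few UMIs nearly everywhere. D1-MSN-like nuclei held 95 UMIs of Htr1f and D2-MSN-like nuclei 78, at 1.74 to 3.23 and 2.02 to 3.02 CPM per library, overlapping ranges. The Klhl1 cluster held 12, the glutamatergic class 8 and the Grm8 MSN-like class 7. No UMI of Htr1f was seen in 6657 oligodendrocyte-like nuclei, which allows up to 0.0451% of such nuclei to hold one, nor in 1733 astrocyte-like nuclei, which allows up to 0.173%. The Pvalb/Pthlh-like, Sst-like and Drd3 classes also held none, with limits of 0.591%, 1.27% and 0.952% of their nuclei; these limits, of 3 counts, cover counting error only.

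Htr2c was high in Sst interneurons and D2 MSNs and low in glia and in the Grm8 and Drd3 classes. Its level in Sst-like nuclei was 1161, 1318, 1158 and 1301 CPM, and in D2-MSN-like nuclei 777, 906, 1111 and 975 CPM. The Sst-like values lay above the D2-MSN-like values in every library. Next were the Klhl1 cluster at 405, 508, 503 and 615 CPM and D1-MSN-like nuclei at 461, 378, 491 and 467 CPM, whose ranges overlapped. Grm8 MSN-like nuclei held 64.4 to 86.4 CPM and the Drd3 cluster 4.96 to 63.9 CPM of Htr2c.

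Oligodendrocyte-like nuclei served as the background, with Htr2c at 6.30 to 11.3 CPM. To compare shares of nuclei, each nucleus was thinned to 1000 UMIs, since the median UMI count per nucleus was 6675 to 9869.5 in the D1-MSN-like class, 6285 to 9655 in the D2-MSN-like class and 1513 to 2000.5 in the oligodendrocyte-like class. After thinning, Htr2c was detected in 58.5% ± 4.68 (SD, n = 4 libraries) of Sst-like, 54.7% ± 4.44 of D2-MSN-like and 29.8% ± 3.30 of D1-MSN-like nuclei. Oligodendrocyte-like nuclei gave 0.693% ± 0.309. Without thinning the shares were 78.0%, 93.1%, 68.2% and 1.30%. Thinning left out 7 saline and 30 cocaine D1-MSN-like nuclei, 1 and 6 D2-MSN-like nuclei, 0 and 0 Sst-like nuclei, and 105 and 215 oligodendrocyte-like nuclei, all with fewer UMIs than that.

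Htr2c was found in every MSN cluster of the D1-MSN-like and D2-MSN-like classes. Within the D2-MSN-like class the Calcr cluster of 3469 nuclei had 802 to 1161 CPM, and the Casz1 cluster had 537, 507, 697 and 690 CPM, lower in every library. Within the D1-MSN-like class the Reln cluster of 3065 nuclei had 435, 449, 551 and 523 CPM and the Sulf1 cluster of 1900 nuclei had 525, 282, 423 and 366 CPM, ranges that overlapped. Glutamatergic nuclei spread widely, at 64.1, 187, 325 and 163 CPM, from 31, 257, 53 and 120 nuclei.

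Htr2a, the other Gq-coupled receptor gene, was detected in neurons and was near 0 in glia. Its level was 85.7, 59.3, 63.9 and 29.9 CPM in Sst-like nuclei, from 8 to 26 UMIs per library. In D2-MSN-like nuclei Htr2a stood at 32.7, 33.9, 34.9 and 29.96 CPM, and in D1-MSN-like nuclei at 27.3, 24.1, 29.1 and 22.8 CPM. The lowest D2-MSN-like value was above the highest D1-MSN-like value, and the Sst-like range overlapped the former. Glutamatergic nuclei had 21.4 to 42.7 CPM, the Klhl1 cluster 17.8 to 25.2 CPM and Grm8 MSN-like nuclei 3.34 to 11.1 CPM. Htr2a gave 6 UMIs in all oligodendrocyte-like nuclei, 2 in astrocyte-like nuclei and none in 1007 precursor-like nuclei, which allows up to 0.298% of these.

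Htr4 was highest in the Drd3 cluster, at 1289, 1332, 1569 and 1613 CPM. Of the D1-MSN markers, that cluster held more Isl1 than D1-MSN-like nuclei (251 against 67.6 CPM). The same was true of Tac1, the gene of substance P (341 against 193 CPM). Other markers of that list were lower in it: Drd1 (44.7 against 105 CPM), Ebf1 (15.5 against 382 CPM) and Pdyn (8.74 against 46.5 CPM). Eya1 was near 0 in both (0.971 and 0.220 CPM). After thinning, 71.3% ± 6.49 (SD, n = 4) of its nuclei held an Htr4 UMI, against 0.266% ± 0.153 of oligodendrocyte-like nuclei; before thinning the shares were 94.4% and 0.344%. D2-MSN-like nuclei followed with Htr4 at 338, 339, 353 and 297 CPM, well below the Drd3 cluster in every library.

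D1-MSN-like nuclei had 133, 269, 308 and 216 CPM of Htr4, a wide spread whose range overlapped that of D2-MSN-like nuclei, although the D2-MSN-like value was the higher in each of the 4 libraries. The Klhl1 cluster held 185, 159, 167 and 162 CPM, inside the D1-MSN-like range. Grm8 MSN-like nuclei had 57.7, 158, 132 and 133 CPM. Sst-like nuclei had 47.0 to 71.1 CPM, and no glial class passed 4.51 CPM.

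Htr4 differed between the clusters of each MSN class. It was itself the first gene by fold of the Sulf1 cluster, and among the top 10 of the Casz1 and Drd3 clusters, although no serotonin receptor gene was used in the clustering. Htr4 stood at 34.5, 30.6, 25.7 and 26.4 CPM in the Reln cluster and at 378, 594, 634 and 558 CPM in the Sulf1 cluster. The Sulf1 cluster held 92.4% of the class's Htr4 UMIs, 8961 of 9694. Its share of D1-MSN-like nuclei was 29.5%, 41.1%, 45.5% and 33.6%, in the same order of libraries as the class's Htr4 level.

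The same kind of split was seen for Htr4 in the Grm8 MSN-like class. The Otof cluster (955 nuclei), in which Casz1 ranked first by fold, held 90.4% of its Htr4 UMIs, 1339 of 1482. Levels were 101, 248, 195 and 206 CPM in the Otof cluster and 18.1, 40.7, 31.6 and 15.5 CPM in the Chst9 cluster (1030 nuclei). Grm8 itself stood at 229 CPM in the Otof cluster and 2946 CPM in the Chst9 cluster, against 332 CPM in the Sulf1 cluster. The Otof nuclei, with most of the class's Htr4, were thus not high in the gene that names the class. In D2-MSN-like nuclei the contrast was smaller, with 504 to 647 CPM of Htr4 in the Casz1 cluster and 276 to 328 CPM in the Calcr cluster.

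Htr7 was found mainly in GABAergic cells outside the large MSN clusters. The Klhl1 cluster, where it was among the top 10 genes by fold, stood at 185, 166, 214 and 124 CPM of Htr7. The Kit cluster of the Pvalb/Pthlh-like class (426 nuclei) stood at 154, 172, 188 and 148 CPM, and the Casz1 cluster of the D2-MSN-like class at 141, 131, 171 and 153 CPM. These 3 ranges overlapped, so no order among them holds beyond the spread.

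The Klhl1 cluster held 7.37% of kept nuclei and 54.7% ± 14.2 (SD, n = 4) of their Htr7 UMIs, as means of the libraries. In the D2-MSN-like class, the Casz1 cluster held 95.2% of Htr7 UMIs, 412 of 433, and the Calcr cluster stood at 0.432 to 1.30 CPM from 21 UMIs. The 82 nuclei of a cholinergic interneuron-like class, too few to be tested, had 113, 87.1, 119 and 40.8 CPM, from 36, 29, 36 and 3 UMIs. The cocaine male value rested on few UMIs, from 8 nuclei. D1-MSN-like nuclei had 2.93 to 6.93 CPM and Grm8 MSN-like nuclei 14.7 to 22.3 CPM of Htr7. Thinned to 1000 UMIs, Htr7 was detected in 13.6% ± 1.39 of Klhl1 cluster nuclei and 0.0859% ± 0.0645 of oligodendrocyte-like nuclei, and in 47.3% and 0.254% without thinning.

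**Figure D1:**
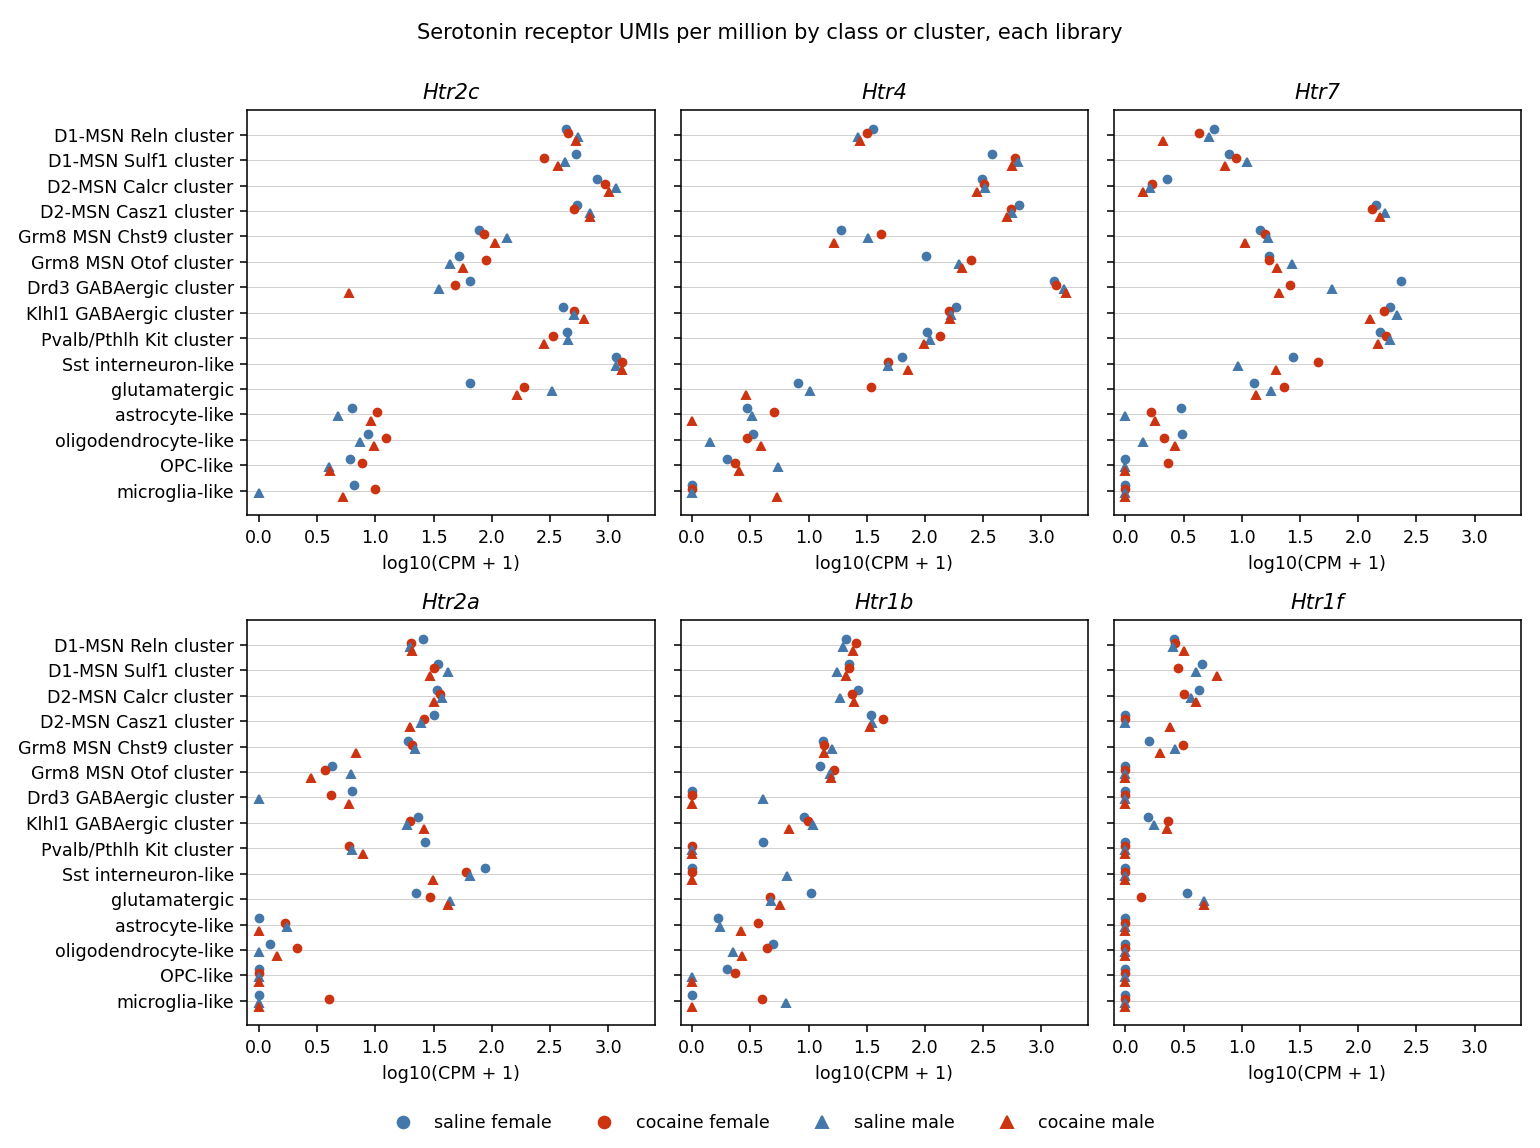
Levels of the 6 receptor genes by library, as log10(CPM + 1), in the MSN clusters, the Drd3, Klhl1 and Kit clusters and the other classes; circles are female, triangles male, blue saline and red cocaine. Htr2c is high in Sst-like nuclei and the Calcr cluster, Htr4 in the Drd3 cluster (1289 to 1613 CPM) and Htr7 in the Klhl1 cluster (124 to 214 CPM), while astrocyte-like, oligodendrocyte-like, precursor-like and microglia-like nuclei lie low for all 6.

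**Figure D2:**
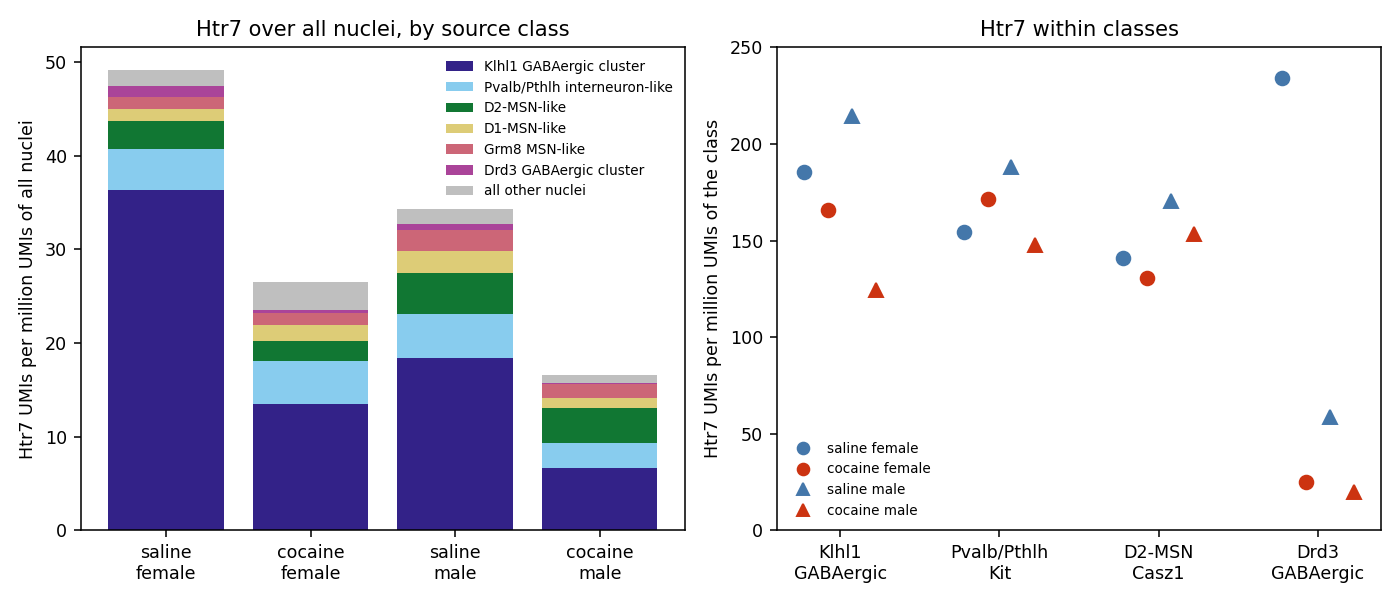
Left, Htr7 UMIs per 1000000 UMIs of all nuclei in each library, stacked by the class they came from; right, Htr7 CPM within the Klhl1, Kit, Casz1 and Drd3 clusters, with circles for female, triangles for male, blue for saline and red for cocaine. The Klhl1 cluster gives 74.1%, 51.0%, 53.6% and 40.2% of the Htr7 UMIs of the bars from left to right, and the saline female library stands highest in the Drd3 cluster, at 234 CPM.

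Several receptors were detected unevenly among nuclei of a cluster or class. For this, nuclei were thinned to 3000 UMIs, and the share with one receptor was compared between nuclei with and without a UMI of another, within each library. In the Sulf1 cluster, Htr2c was found in 44.7%, 27.2%, 33.9% and 26.5% of nuclei with an Htr4 UMI and in 67.2%, 59.9%, 65.7% and 57.8% of nuclei without one. All 4 libraries thus showed the lower Htr2c share beside Htr4, by 29.5 ± 4.76 percentage points (SD, n = 4), over 1813 nuclei.

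The direction was the same but smaller in D2-MSN-like nuclei. There Htr2c was in 79.0% of nuclei with Htr4 and 86.0% of those without, a difference of -6.97 ± 0.83 percentage points, negative in 4 of 4 libraries. That class joins the Calcr cluster, where the difference was -3.06 ± 1.44 and negative in 4 of 4 libraries, with the Casz1 cluster, where it was -14.8 ± 12.9 and negative in 3 of 4. Thinned to 5000 UMIs, the Casz1 cluster gave -26.2 ± 17.6. In the Reln cluster the difference was -6.89 ± 6.54, negative in 3 of 4 libraries. Nuclei of the Kit cluster gave 34.1% in both cases.

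Other pairs went together. In the Kit cluster Htr7 was detected in 47.6% of nuclei with Htr2c and 23.7% of those without, a difference of 23.9 ± 6.61 percentage points and positive in 4 of 4 libraries. In the Casz1 cluster of D2-MSN-like nuclei, Htr4 was in 76.0% of nuclei with Htr7 and 59.1% of those without, a difference of 16.9 ± 8.72, again positive in 4 of 4. At 5000 UMIs that difference was 9.58 ± 6.20, positive in 4 of 4. These are shares of nuclei within the same libraries, given as a description with no test.

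**Figure D3:**
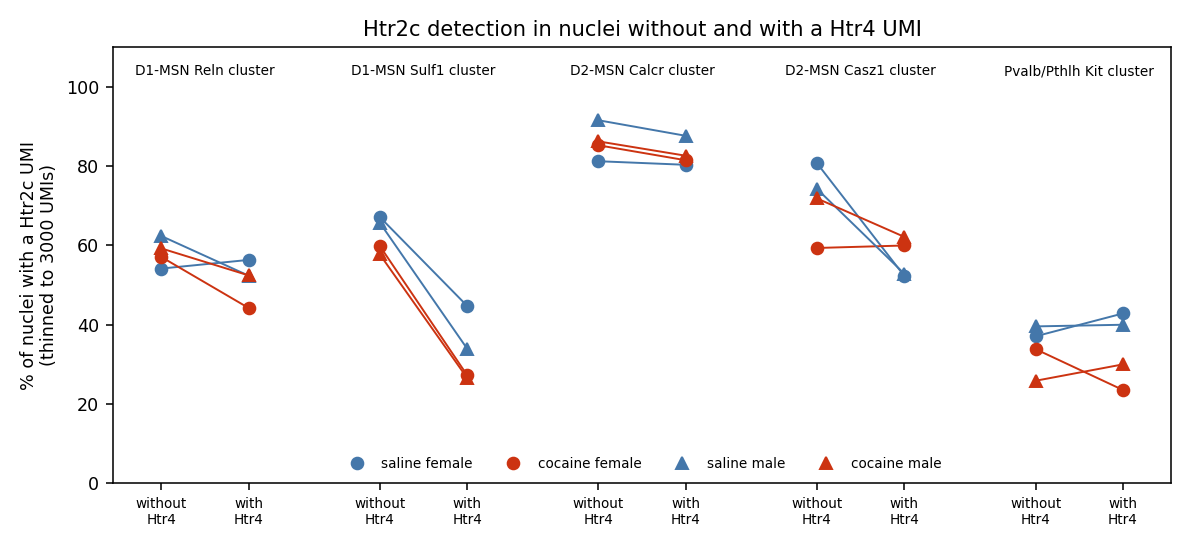
Percent of nuclei with an Htr2c UMI among nuclei without and with an Htr4 UMI, in 5 clusters, after thinning to 3000 UMIs; each line joins the values of 1 library. In the Sulf1 cluster the share with Htr4 (26.5% to 44.7%) lies below the share without (57.8% to 67.2%) in every library, and in the Kit cluster the lines go both ways.

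Cocaine was compared with saline on UMIs summed per class and library, with edgeR's quasi-likelihood test, sex as a covariate and Benjamini-Hochberg adjustment over all genes tested in the class. Of the 72 combinations of receptor and class, 38 had enough UMIs to be tested. Of these, 2 passed an adjusted p of 0.05, Htr2c in Pvalb/Pthlh-like interneurons and Htr7 in the Drd3 cluster, and both were lower with cocaine. Another 9 had an unadjusted p under 0.05 only, and 21 of the 38 estimates were below 0. Over all genes, such a p was reached by 1108 of 13284 in D1-MSN-like, 1005 of 9246 in Pvalb/Pthlh-like and 204 of 8699 in glutamatergic nuclei. With 2 libraries per treatment and sex in the fit, 1 residual degree of freedom is left per gene, and the spread is largely borrowed from other genes.

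In Pvalb/Pthlh-like interneurons Htr2c fell. Its UMIs were 426, 240, 345 and 131, or 412, 228, 439 and 218 CPM. Both cocaine libraries lay below both saline libraries, at a mean of 223 ± 7.21 CPM (SD, n = 2) against 425 ± 19.1 CPM (SD, n = 2). The log2 change was -0.97 ± 0.13 (SE; edgeR, adjusted p = 1.31e-07), in a class where 2.03% of 9246 genes were called and 0.833% were called lower with cocaine. DESeq2 gave an adjusted p of 0.0233, where it called 23 of 9246 genes. Every alternative tried on the whole class kept the call, at -0.81 to -1.04. Of the class's 4 tested receptors Htr2c alone was called.

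The makeup of this class also differed between treatments. Nuclei of a Vip cluster, in which Vip ranked first, made up 4.8%, 33.3%, 2.4% and 19.6% of it in the 4 libraries (6, 50, 3 and 21 nuclei). They held Htr2c at 0, 53.1, 0 and 50.1 CPM, from 0, 23, 0 and 8 UMIs. With so few saline nuclei, the 0 values do not set the Htr2c level of this cluster with saline. In the Kit cluster of this class the Htr2c UMIs were 426, 206, 345 and 123, or 438, 337, 451 and 279 CPM. Both cocaine values still lay below both saline values. The log2 change there was -0.58 ± 0.13 (SE; edgeR, adjusted p = 0.0414), in a cluster where 0.119% of genes were called and 0.107% were called lower. That call was lost with DESeq2 (adjusted p = 1.00), without sex in the model (edgeR, adjusted p = 0.726), without the saline female (0.576), the saline male (0.355) or the cocaine male library (0.816), and was kept without the cocaine female library (0.0459).

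The change of Htr2c in the whole Pvalb/Pthlh-like class was set against that in D1-MSN-like nuclei in one model. The difference was -0.76 ± 0.15 on the log2 scale (SE; edgeR, adjusted p = 0.00912), 1 call among 66 such receptor and class pairs, and 0.678% of genes were called in this contrast. The 66 include pairs with no UMI in the other class, such as Htr1f in astrocyte-like nuclei, which could hardly be called. In the contrasts of the other classes with D1-MSN-like nuclei, the share of genes called was 0.158% for D2-MSN-like, 0.00698% for Klhl1, 0.0903% for Sst-like, 0.029% for astrocyte-like, 0.022% for oligodendrocyte-like, 0.12% for precursor-like and 0.0443% for microglia-like nuclei, and 0% for Grm8 MSN-like and glutamatergic nuclei. With the Vip cluster left out it was -0.36 ± 0.16 (edgeR, adjusted p = 0.985), and 0% of genes were called. Leaving out single libraries moved the adjusted p for the whole class from 0.000248 to 0.168.

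**Figure D4:**
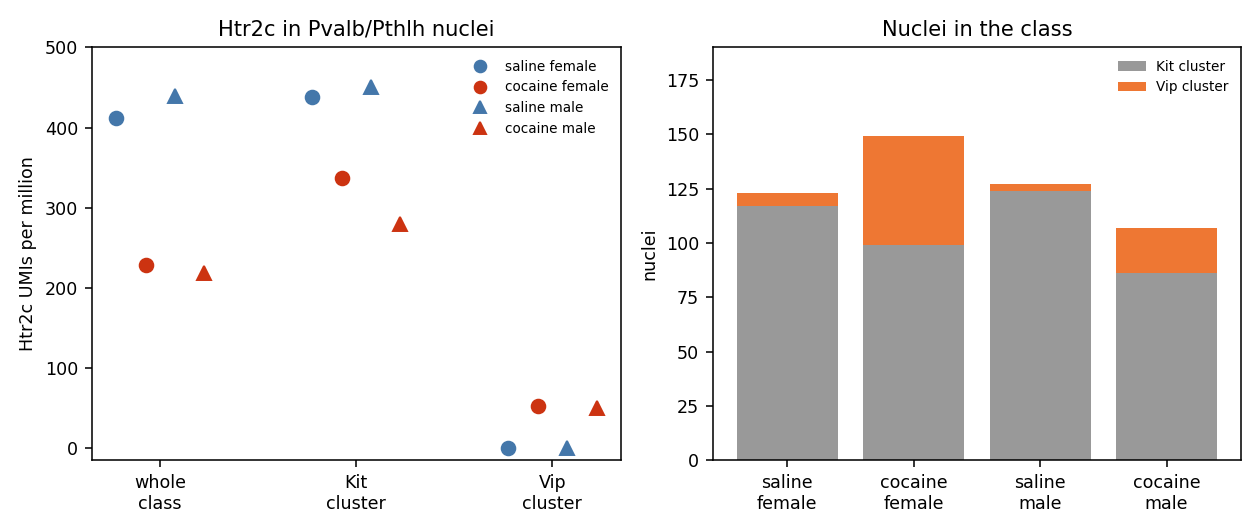
Left, Htr2c CPM by library in the whole Pvalb/Pthlh-like class and in its Kit and Vip clusters; right, the number of Kit and Vip cluster nuclei in each library. Cocaine libraries lie below saline libraries in the whole class (228 and 218 against 412 and 439 CPM) and in the Kit cluster (337 and 279 against 438 and 451 CPM), and Vip cluster nuclei number 50 and 21 with cocaine against 6 and 3 with saline.

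Htr7 fell with cocaine in the Drd3 cluster, on few UMIs. They were 44, 8, 19 and 4 from 42, 87, 109 and 77 nuclei, or 234, 25.2, 58.8 and 19.9 CPM. Both cocaine libraries lay below both saline libraries, but the saline libraries differed from each other, and 14 of the 42 saline female nuclei held all 44 of its UMIs. The log2 change was -2.72 ± 0.46 (SE; edgeR, adjusted p = 1.36e-06), where 1.86% of 4777 genes were called and 1.3% were called lower. In this fit the spread was pooled wholly over genes, so the spread of Htr7 itself between libraries carried no weight in the p-value.

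The Htr7 call in this cluster was lost under 3 of the alternatives tried, among them DESeq2, which called 4 of the cluster's 4777 genes. The values were -2.51 with DESeq2 (adjusted p = 1.00), -2.55 without sex in the model (edgeR, adjusted p = 0.404) and -1.36 without the saline female library (edgeR, adjusted p = 0.998). Its difference from the change in D1-MSN-like nuclei was -1.90 ± 0.65 (SE; edgeR, adjusted p = 0.381), in a contrast where 0.313% of genes were called. The cluster's UMIs of Klhl1 were 0, 1, 1 and 0.

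Summed over all nuclei, Htr7 stood at 49.1, 26.5, 34.3 and 16.6 CPM. Both cocaine libraries lay below both saline libraries. The log2 change was -0.97 ± 0.08 (SE; edgeR, adjusted p = 0.0261), the 1 call among 6 receptors, where 0.0484% of 16527 genes were called and 0.0182% were called lower. DESeq2 also called 1 of the 6 receptors over all nuclei. In such a sum, fewer cells of a type and less RNA per cell cannot be told apart. The Klhl1 cluster's share of nuclei was 12.8%, 6.08%, 6.08% and 4.51%, lower with cocaine in each sex.

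With class shares held equal between libraries, the female difference in Htr7 was -0.24 and the male difference -0.83 on the log2 scale. Without the Klhl1 cluster, the corresponding values were -0.16 and -0.73. Inside the Klhl1 cluster the change was -0.49 ± 0.17 (SE; edgeR, unadjusted p = 0.0146, adjusted p = 0.971), where 0.0166% of genes were called. The call over all nuclei was lost without sex in the model (-0.96, edgeR adjusted p = 0.929) and without any 1 library (-0.66 to -1.34, adjusted p = 0.246 to 1.00).

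In the MSN classes no receptor passed the test. None of 6 was called in D1-MSN-like nuclei, where edgeR called 0.188% of 13284 genes, or in D2-MSN-like nuclei, where it called 0.33% of 12728. DESeq2 called none in either, where it called 7 of 13284 and 1 of 12728 genes in all. In each of these classes, 2 receptors had an unadjusted p under 0.05 in edgeR. So did 1108 of all 13284 genes in D1-MSN-like and 1210 of all 12728 in D2-MSN-like nuclei. For Htr2c the log2 change was -0.20 (adjusted p = 0.525) in D1-MSN-like and -0.03 (adjusted p = 0.958) in D2-MSN-like nuclei. For Htr4 it was 0.21 ± 0.26 (adjusted p = 0.865) and -0.16 (adjusted p = 0.477), for Htr7 -0.61 (adjusted p = 0.627) and -0.51 (adjusted p = 0.250), and for Htr1b 0.23 (adjusted p = 0.635) and 0.04. Htr2a stood at -0.29 (adjusted p = 0.545) and -0.12, and Htr1f at 0.13 and -0.19, the last from few UMIs per library.

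The clusters inside the MSN classes gave no call either. None of 6 receptors was called in the Reln cluster, where 0.766% of genes were called, or in the Sulf1 cluster, where 0.0167% were called; DESeq2 called none, and 1 in each had an unadjusted p under 0.05. Htr2c in the Sulf1 cluster stood at 525, 282, 423 and 366 CPM, with a log2 change of -0.55 ± 0.14 (SE; edgeR, unadjusted p = 0.00268, adjusted p = 0.519). Both cocaine values lay below both saline values. In the Otof cluster of the Grm8 MSN-like class Htr2c went the other way, by 0.58 ± 0.17 (SE; edgeR, unadjusted p = 0.00298, adjusted p = 0.278). Both cocaine values there lay above both saline values. None of 4 receptors was called in the Otof cluster, where 0.301% of genes were called, and none of 5 in the Chst9 cluster, where 0.172% were called. In the 2 D2-MSN clusters none of 5 receptors was called, where 0.734% of genes were called in the Calcr cluster and 0.427% in the Casz1 cluster, with none at an unadjusted p under 0.05 and none by DESeq2.

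Htr4 in Grm8 MSN-like nuclei came nearest to the threshold in the MSN classes. Its log2 change was 0.67 ± 0.17 (SE; edgeR, adjusted p = 0.0989), where 0.33% of genes and none of 5 receptors were called. An unadjusted p under 0.05 was reached by 2 receptors and by 998 of all 11532 genes. DESeq2 called no receptor, and 0 of the 11532 genes in all. The log2 difference was 1.45 between the female libraries and 0.01 between the male libraries. The Otof cluster made up 38.6%, 48.8%, 52.6% and 51.0% of the class, and inside it the log2 change of Htr4 was 0.63 (edgeR, adjusted p = 0.234), where 0.301% of genes were called. With edgeR, the test passed without a filter on low counts (adjusted p = 6.53e-05), without doublet removal (1.80e-05) and with the receptors used in the clustering (6.02e-06). There 71 of 18545, 85 of 11685 and 97 of 11535 genes were called, against 38 of 11532 in the main fit. In those fits the spread was pooled wholly or almost wholly over genes. No receptor passed in this class with DESeq2, with RLE scaling, without sex in the model or at a clustering resolution of 1.0.

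In the other classes no receptor was called in the main fit. Without doublet removal, 1 was called in astrocyte-like and 1 in precursor-like nuclei. In the Klhl1 cluster Htr2c had a log2 change of 0.26 (edgeR, adjusted p = 0.971). In Sst-like nuclei, where 0.441% of genes were called, Htr2c stood at 0.13 (adjusted p = 0.870) and Htr2a at -0.76 (adjusted p = 0.469). In glutamatergic nuclei 0% of genes were called. In glia only 3 receptor and class pairs had enough UMIs to be tested, where 1.35% of genes were called in astrocyte-like, 0.484% in oligodendrocyte-like, 0% in precursor-like and 0.145% in microglia-like nuclei. Over the 10 classes without a call, 8 of 31 tested pairs had an unadjusted p under 0.05 in edgeR. Among all genes, such a p was reached by 481 of 12046 in the Klhl1 cluster, 539 of 6120 in Sst-like and 204 of 8699 in glutamatergic nuclei. DESeq2 called none of the pairs, and 0 genes in all in the Klhl1 cluster, Sst-like and glutamatergic nuclei.

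**Figure D5:**
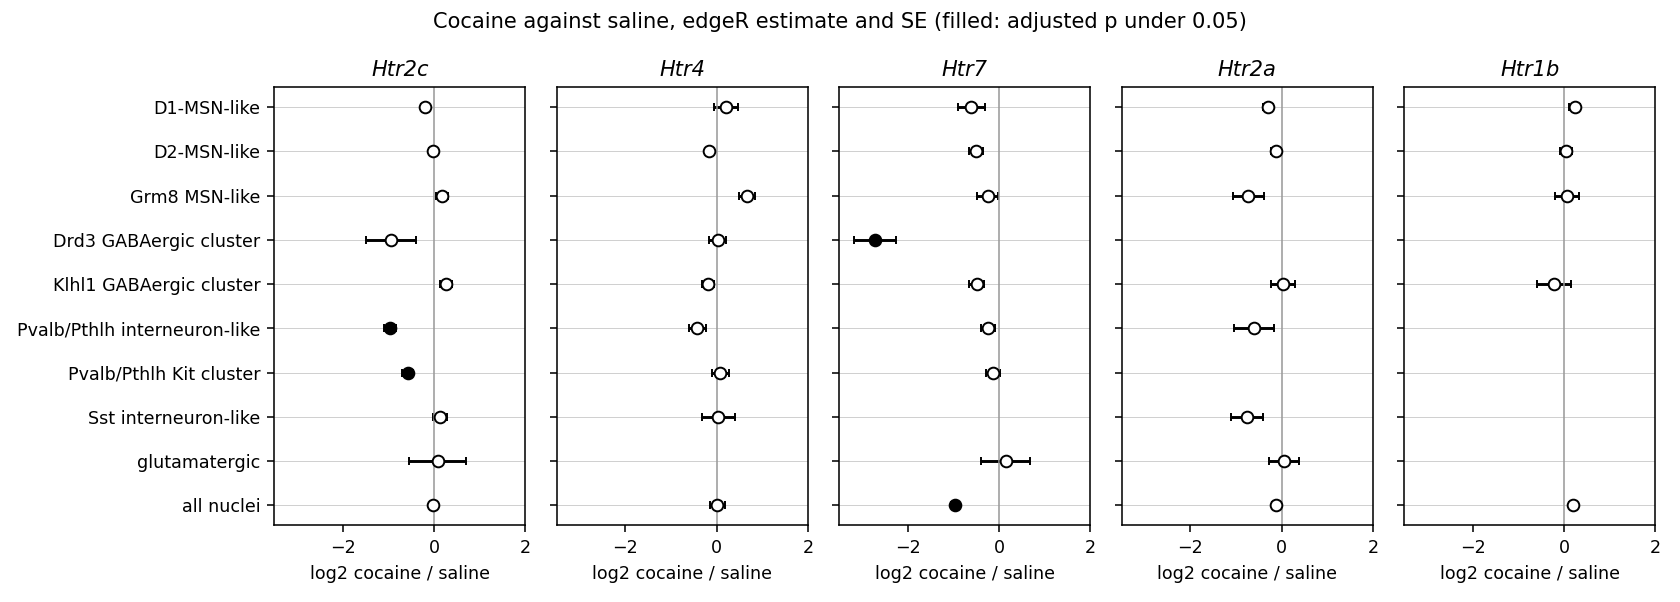
Log2 change with cocaine of 5 receptors by class, from edgeR, with bars of 1 standard error; filled points passed an adjusted p of 0.05, and a missing point was not tested. Filled are Htr2c in the Pvalb/Pthlh-like class (-0.97) and its Kit cluster (-0.58), and Htr7 in the Drd3 cluster (-2.72) and over all nuclei (-0.97).

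Genes that act after these receptors were followed as a list of 35, made up of G protein subunits, adenylyl cyclases, phospholipases, protein kinases, arrestins, binding partners of the receptors and the RNA editing enzymes Adar and Adarb1. Between 17 and 33 of them were tested per class, and 5 calls were made in all. None of the 5 was called by DESeq2 (adjusted p = 0.774 to 1.00). Itpr1, the calcium release channel opened by the Gq pathway, rose in Pvalb/Pthlh-like nuclei by 0.93 on the log2 scale (edgeR, adjusted p = 6.55e-05), 1 of 30 tested in a class where 2.03% of all genes were called. In the Kit cluster, without the Vip nuclei that were 4.8% and 2.4% of the class with saline against 33.3% and 19.6% with cocaine, Itpr1 stood at 0.21 ± 0.21 (SE; edgeR, adjusted p = 0.887). Prkcb, a protein kinase C, fell by 0.89 in the Drd3 cluster (edgeR, adjusted p = 0.0290), 1 of 21 tested where 1.86% of all genes were called. Its call was lost without sex in the model (adjusted p = 0.662), without a filter on low counts (0.215), without doublet removal (-0.29, adjusted p = 0.877) and without any 1 library (-0.41 to -1.26, adjusted p = 0.224 to 0.998).

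In astrocyte-like nuclei 2 of 32 fell, Plcb1, a phospholipase C activated by Gq, by 0.41 (edgeR, adjusted p = 0.00219), and Adcy8, an adenylyl cyclase, by 0.82 (edgeR, adjusted p = 6.97e-07), where 1.35% of all genes were called. Both calls were lost without sex in the model (edgeR, adjusted p = 0.737 and 0.615), without the saline female library (-0.27 and -0.42, adjusted p = 0.936 and 0.911) and without the cocaine male library (-0.29 and -0.52, adjusted p = 0.993 for each). Plcb1 also lost its call without the cocaine female library (adjusted p = 0.251) and without doublet removal (0.282). In microglia-like nuclei 1 of 17 fell, the adenylyl cyclase Adcy9, by 0.66 (edgeR, adjusted p = 0.0144), where 0.145% of all genes were called. The Adcy9 call was also lost with RLE scaling (adjusted p = 0.178), without a filter on low counts (0.0754), without doublet removal (0.0781), without sex in the model (0.290) and without single libraries other than the saline male (0.108 to 0.580). None was called by edgeR in the other 8 classes, where 25 of 242 tested values had an unadjusted p under 0.05. Among all genes, so did 1108 of 13284 in D1-MSN-like, 1210 of 12728 in D2-MSN-like and 204 of 8699 in glutamatergic nuclei. The list's median log2 change lay between -0.141 and 0.005 over the classes, beside medians of -0.01 to 0.01 over all genes tested.

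Genes whose level over 14 named classes was most like a receptor's were found by Pearson's r of log2 CPM, over genes with at least 500 UMIs. These are descriptions over classes of the same libraries, without a test. For Htr2c they were Myo5b (r = 0.952), Trim66 (0.945) and Slco6b1 (0.918), and Trim66 and Myo5b were also nearest to Htr2a (0.95 and 0.949). For Htr4 they were Prkar2b (0.932), a regulatory subunit of the cyclic AMP-dependent protein kinase, Syt6 (0.917) and Pde2a (0.912), a cyclic nucleotide phosphodiesterase. For Htr7 they were Lhfpl5 (0.934), Gpc3 (0.927) and Fgf9 (0.922). Htr1b was nearest to Dynlrb2 (0.934), and Htr1f to Kcng1 (0.981), the latter from few UMIs of Htr1f.

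Some reads could belong to other annotated genes that overlap these receptors in RefSeq. Htr2c holds small RNA genes such as Mir448 and Snora35 inside it, Htr4 overlaps the noncoding gene LOC108348797 and Htr7 the pseudogene LOC108353431. How the deposited counts assigned such reads was not tested.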

How the data were processed

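Raw UMI counts per gene and nucleus were deposited for 4 libraries; per the file headers they were made with Cell Ranger 6.1.2, and the submitters' processing notes name Cell Ranger and the rat assembly rn7. Per the labels' protocols a mean of 12500 sorted nuclei was loaded per library. The counts carry no coordinates; promoter letters come from RefSeq's GRCr8, another assembly.

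Filters required 200 genes and no more than 5% mitochondrial UMIs (4 nuclei failed). The 1381 nuclei with the highest Scrublet doublet scores were then removed (4.97% to 5.81% per library), leaving 24843. Their number was preset at 0.8% per 1000 nuclei in a library. Scrublet's own threshold would have marked 3.34% to 4.50% per library. Scanpy 1.11.5 and leidenalg 0.10.2 clustered them on 2000 variable genes without serotonin receptor, immediate-early, mitochondrial and sex-linked genes (30 components, 15 neighbours, resolution 0.5). Classes were named from 93 markers, 5 of them not among the genes of the files; the naming thresholds were set after the data were seen. Classes with 25 nuclei in each library were tested; the split of the D2-MSN-like, Grm8 MSN-like and Pvalb/Pthlh-like classes into clusters was added after seeing the data.

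UMIs were summed per class and library. edgeR 4.0.16 (R 4.3.3; TMM, filterByExpr, quasi-likelihood) was the main test and DESeq2 1.42.0 an alternative; the code was tested on simulated data. Replicate numbers follow sex, so the sex covariate is the replicate block. With 2 libraries per treatment, 1 residual degree of freedom is left. The edgeR p-values rest mostly on a spread pooled over genes. That pooled spread counted as 60.73 degrees of freedom in the Pvalb/Pthlh-like class and as infinitely many in the Drd3 cluster. No p-value measures the spread between rats, which were pooled. Levels by class carry no test, since the clustering defines the classes. The 6 receptors were named throughout, and the receptors, markers and lists were chosen with earlier results of these data known.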

Additional observations from a re-analysis of the deposited data

Results flagged for a closer look

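The cocaine effect on Htr2c was tested as differing between Pvalb/Pthlh-like and D1-MSN-like nuclei, by -0.76 on the log2 scale. That difference was smaller and not called with the Vip cluster left out, whose share of the class was higher with cocaine in each sex. Effects of opposite sign in the sexes, whose difference was not tested, were seen for Htr4 in D1-MSN-like nuclei (1.02 in females and -0.51 in males), where the Sulf1 cluster's share of nuclei moved the same way (its part was not tested), and for Htr4 over all nuclei (0.38 and -0.33). For Htr2c the values were 0.22 and -0.19 in D2-MSN-like nuclei and 0.062 and -0.08 over all nuclei. In glutamatergic nuclei they were 1.52 and -0.99, from 31, 257, 53 and 120 nuclei. With 1 library per sex and treatment these signs have no replicate.

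In Grm8 MSN-like nuclei 1 library stood apart from the other 3 for Htr2a, at 3.34 CPM in the cocaine male, and for Htr7, at 22.3 CPM in the saline male. Chance flags about 1 in 20 groups of 4 libraries, and 2 of 42 were flagged.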

How the results depend on the processing

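The 2 calls over classes became 1 with DESeq2, 1 without sex as a covariate (no replicate block), 5 without doublet removal and 1 to 4 when single libraries were left out. Sex is the only pairing the labels give, and the block made the difference between 2 calls and 1 there, and between 1 call and 0 over all nuclei, where leaving out single libraries also gave 0. In the D1-MSN clusters, none were called; 1 was without a filter on low counts and 0 to 2 without single libraries. The 1 difference between classes became 0 without the Vip cluster, an alternative added after seeing the data, and 0 to 6 without single libraries. Without doublet removal, 1 receptor each was called in Grm8 MSN-like, Drd3, Pvalb/Pthlh-like, astrocyte-like and precursor-like nuclei. Among all genes, 85 of 11685, 17 of 5320, 220 of 9393, 119 of 11295 and 13 of 9123 were called there. In the main fit these were 38 of 11532, 89 of 4777, 188 of 9246, 140 of 10348 and 0 of 8410. Leaving out 1 library leaves 1 library in its treatment, so those counts of calls decide nothing. The Htr2c difference beside Htr4 in D2-MSN-like nuclei was -5.82 percentage points at 5000 UMIs against -6.97. Of 749 values over 78 receptor and class pairs, 60 changed sign, none where a call was involved; 13 lost and 13 gained a call; the cause was not tested. Of 168 level values 11 moved by over 1 SD. Depth limits Htr1f and the 30 pairs with under 20 UMIs.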

Other observations

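Of the other serotonin receptor genes in the files, Htr6, Htr3a and Htr2b had 1588, 1570 and 3725 UMIs. Htr6 was at 17.8 CPM among D1-MSN-like nuclei, at 20.4 CPM among D2-MSN-like ones, at 20.2 CPM in the Otof cluster and at 6.34 CPM in the Chst9 cluster. Htr3a, the gene of an ion channel subunit, was highest in Sst-like (58.4 CPM) and Vip cluster nuclei (47.5 CPM), against 15.4 CPM in D1-MSN-like nuclei. Htr2b lies inside Psmd1, so its reads are uncertain. Htr5a had 130, Htr1d 82, Htr5b 26, Htr3b 16 and Htr1a 12 UMIs in all. The serotonin transporter gene Slc6a4 had 31 and the serotonin synthesis gene Tph2 42. Maob, which breaks down amines, had 1443 of its 1907 UMIs in astrocyte-like nuclei.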
